A study of Rattus norvegicus with 15 samples.

Results

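Glycosyltransferases build the sugar chains of proteins and lipids, and glycan sulfotransferases add sulfate groups to them. Genes of these enzymes were chosen by symbol, with a pattern that covers the galactosyl-, glucuronyl-, sialyl-, fucosyl-, GalNAc-, GlcNAc-, mannosyl- and xylosyltransferases, the enzymes of glycosaminoglycan chains and the sulfotransferases of glycans. Of the 8621 genes listed in the 3 deposited tables, 76 matched, and all 76 are protein-coding. The pattern also takes in 7 mannosidases, Man1a1, Man1a2, Man1b1, Man1c1, Man2a1, Man2a2 and Man2b1, which remove sugars and are no transferases. Man2b1 is a lysosomal enzyme, and Dpm2 and Dpm3 are non-catalytic subunits of a mannosyltransferase complex. A table lists a gene only if the authors had called it at an adjusted p under 0.05 in that comparison, so every member had already differed between at least 2 of the groups. Of the 76 genes, 15 are listed in 3 tables, 34 in 2 and 27 in 1, and 49 have counts in all 15 samples.

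RNA-seq was performed on macrodissected adrenal medulla, with the cortex removed, of 15 rats in 3 groups of 5. The WT rats were wildtype Sprague-Dawley rats aged 7 to 9.5 months with a normal medulla. The other rats were MENX mutants, which carry a homozygous spontaneous frameshift mutation of Cdkn1b, the gene of the cell cycle inhibitor p27, in every cell, and which develop adrenal medullary tumors. HYP samples are the hyperplastic medulla of MENX rats aged 4 to 5 months, and PCC samples are pheochromocytomas, tumors of the chromaffin cells, of MENX rats aged 7 to 9.5 months. By the methods of the study the PCC group holds PCCs and advanced PCCs, a split that the sample labels do not give and that was not used here. HYP and WT rats therefore had different ages and different genotypes, and the effects of age and mutation cannot be told apart in that comparison. HYP and PCC rats also had different ages, so the effects of age and stage cannot be told apart in PCC vs. HYP. The same 5 WT samples serve in HYP vs. WT and PCC vs. WT, so these comparisons are not independent of each other.

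Sugar chains are assembled in the endoplasmic reticulum and the Golgi apparatus by enzymes that each add 1 kind of sugar in 1 linkage, so the set of enzymes a cell expresses shapes the glycans on its surface. Neural and neuroendocrine cells are known for sialic acid-rich gangliosides and for the HNK-1 epitope, a sulfated glucuronic acid carried by neural adhesion proteins and glycolipids. Heparan and chondroitin sulfate chains are built on proteoglycan core proteins, and their sulfation determines which growth factors they bind. Mucin-type O-glycans start with a GalNAc residue on serine or threonine, and N-glycans are transferred from a lipid carrier, trimmed by mannosidases and then extended.

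Reads counted on genes came to 16315018 to 23831269 per sample. Cdkn1b transcripts were counted in all groups, at 44.6 to 72.1 CPM (read counts scaled to the depth of each library) in WT, 82.5 to 124 CPM in HYP and 108 to 173 CPM in PCC. A frameshift need not remove the transcript, so this level does not check the genotype. The tissue was checked against marker genes, summed as CPM over those with counts in all 15 samples. The 11 chromaffin markers, Th, Dbh and Ddc among them, summed to 2070 to 9905 CPM in WT, 11479 to 16183 CPM in HYP and 19580 to 37750 CPM in PCC. The 11 adrenal cortex markers, such as Star and Cyp21a1, which a medulla sample should lack, summed to 28425 to 56461 CPM in WT, 13127 to 34552 CPM in HYP and 974 to 15058 CPM in PCC, and none of them was at 0 in any sample. WT replicate 5 stood apart with the lowest chromaffin sum of all samples, and PCC replicates 2 and 4 had the lowest cortex sums, 3015 and 974 CPM. Sums of 8 endothelial markers ranged from 556 to 692 CPM in WT and from 232 to 445 CPM in PCC, while those of 9 Schwann and sustentacular cell markers ranged from 73.2 to 225 CPM in WT and from 342 to 447 CPM in PCC. Those of 5 fibroblast and pericyte markers were 60.9 to 119 CPM in WT and 616 to 2314 CPM in PCC, and those of 11 proliferation markers 23.2 to 35.0 and 149 to 394 CPM. Of the cortex markers, 9 of 14 tested were called lower in PCC than in WT and 0 higher, by edgeR's quasi-likelihood test described next, while 5 had an adjusted p over 0.05, and all 11 chromaffin markers tested were higher. In such bulk samples, fewer cells of a type and less RNA per cell cannot be told apart. The part of the cell composition in the differences reported here was not tested.

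**Figure D1:**
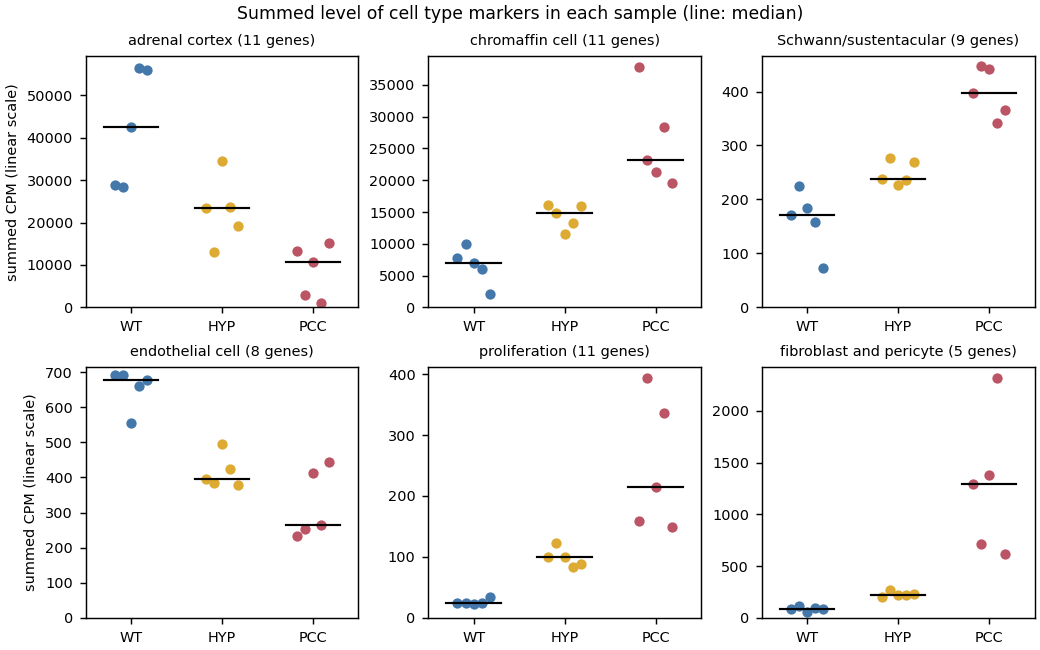
Summed CPM of 6 marker lists in each of the 15 samples, on linear axes, with points for samples and a line at the median of each group. Cortex markers are lowest in PCC replicates 2 and 4, and chromaffin markers are lowest in WT replicate 5.

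Group differences were tested on the read counts with edgeR's quasi-likelihood test over all genes of each table. The p-values were adjusted by the Benjamini-Hochberg method for all genes the authors had tested, fold changes are given on the log2 scale with their standard error (SE), and a gene was called at an adjusted p under 0.05. In PCC vs. WT, 66 of the 76 genes were listed and 63 had enough reads to be tested. Of these, 31 were higher and 23 lower in PCC, and 9 were not called. The share called, 85.7%, lay near the 84.9% of all 7001 genes tested, and the shares higher (49.2%) and lower (36.5%) lay near 47.2% and 37.8%. The groups did not overlap for 41 of the 63, against 64.7% of all genes. The median log2 fold change was 0.56 for the members and 0.45 for all genes. Without PCC replicates 2 and 4, the samples low in cortex markers, 27 members were higher and 14 lower, and without WT replicate 5 the counts were 33 and 22. These fits rest on fewer samples, and the shares of all genes called in them are not given here. The counts are therefore not read as a result about the members.

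In HYP vs. WT, 17 of 39 genes tested were higher, 12 were lower and 10 were not called. This is 74.4% called, beside 71.6% of all 4108 genes, of which 39.0% were higher and 32.6% lower, and 23 of the 39 did not overlap, beside 54.8%. The median log2 fold change was 0.43 for the members and -0.37 for all genes. In PCC vs. HYP, 8 of 30 genes tested were higher, 6 lower and 16 not called, which is 46.7% called beside 44.8% of all 3148 genes, of which 20.3% were higher and 24.5% lower. Of the 30, 17 did not overlap, beside 54.3%. The median there was 0.59 for the members and 0.40 for all genes. Without PCC replicates 2 and 4 the calls were 5 higher and 4 lower, again without a share of all genes beside them. As a group the enzymes were thus called about as often as the other listed genes.

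The split into higher and lower genes depended on the scaling of the samples. With each sample scaled to its summed listed counts in place of TMM, which moved the median of all genes up by 0.49 on the log2 scale in PCC vs. WT, by 0.47 in HYP vs. WT and by 0.18 in PCC vs. HYP, the calls became 32 higher and 8 lower, 20 and 2, and 9 and 3. Scaling to the recovered library totals moved the median by 0.28, 0.19 and 0.25, with 32 and 12, 19 and 6, and 10 and 4 calls. Shares of all genes called under these scalings are not given here, so the changed counts are not read as particular to the members. None of the 31 genes named by the rule changed direction under any scaling. Scaling to the listed counts ended the lower calls of B3gat2, B3gntl1, Chpf, Galnt7 and St3gal5 in PCC vs. WT, of B3gntl1, B4galt5, Chpf, Chst15, Dpm3, Mgat2 and St3gal4 in HYP vs. WT and of B3gat2, B4galt1 and Galnt7 in PCC vs. HYP.

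Levels can be compared between genes only per length, as FPKM (the authors' deposited values, fragments scaled to gene length and depth). By mean FPKM over the 49 genes with counts in all samples, Man1b1 had the highest mean in WT, at 259.8 ± 145 (SD, n = 5), followed by St3gal4 at 135 ± 28.5, B4galt5 at 126 ± 26.7 and Man1a1 at 115 ± 53.7. The ranges of these 4 genes overlap, with Man1b1 between 52.9 and 430.3 FPKM. In PCC the order was led by Galnt6 at 193 ± 87.8, and the next genes, Man2a1 at 52.8 ± 7.31, A3galt2 at 51.7 ± 19.3 and Chpf at 49.5 ± 14.8, did not differ beyond their spread. HYP had Man1a1 at 89.4 ± 35.1, Man2a1 at 74.5 ± 17.4 and Man1b1 at 69.7 ± 7.57 at the top, again within each other's spread. The summed level of the 49 genes was 3250 to 3731 CPM in WT, 2097 to 2609 CPM in HYP and 2076 to 2579 CPM in PCC. The separation of WT from PCC in these sums depends on the TMM scaling. Relative to the recovered library totals, WT and PCC overlapped. WT replicate 5 had 51375 reads of the 49 genes in a total of 18995198, and PCC replicate 4 had 54520 in 18595898. The median of each sample's ratio to the WT mean, in CPM, was 0.868 to 1.06 in WT, 1.03 to 1.32 in HYP and 1.45 to 2.20 in PCC. The sum rests on the abundant genes, while the median counts each gene equally. Genes with few reads in WT could enter the set only through the mutant groups, so no trend with abundance is read from these values. With at least 10 counts required in every sample, the members' median log2 fold change was -0.47 in PCC vs. WT and -0.51 in HYP vs. WT.

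**Figure D2:**
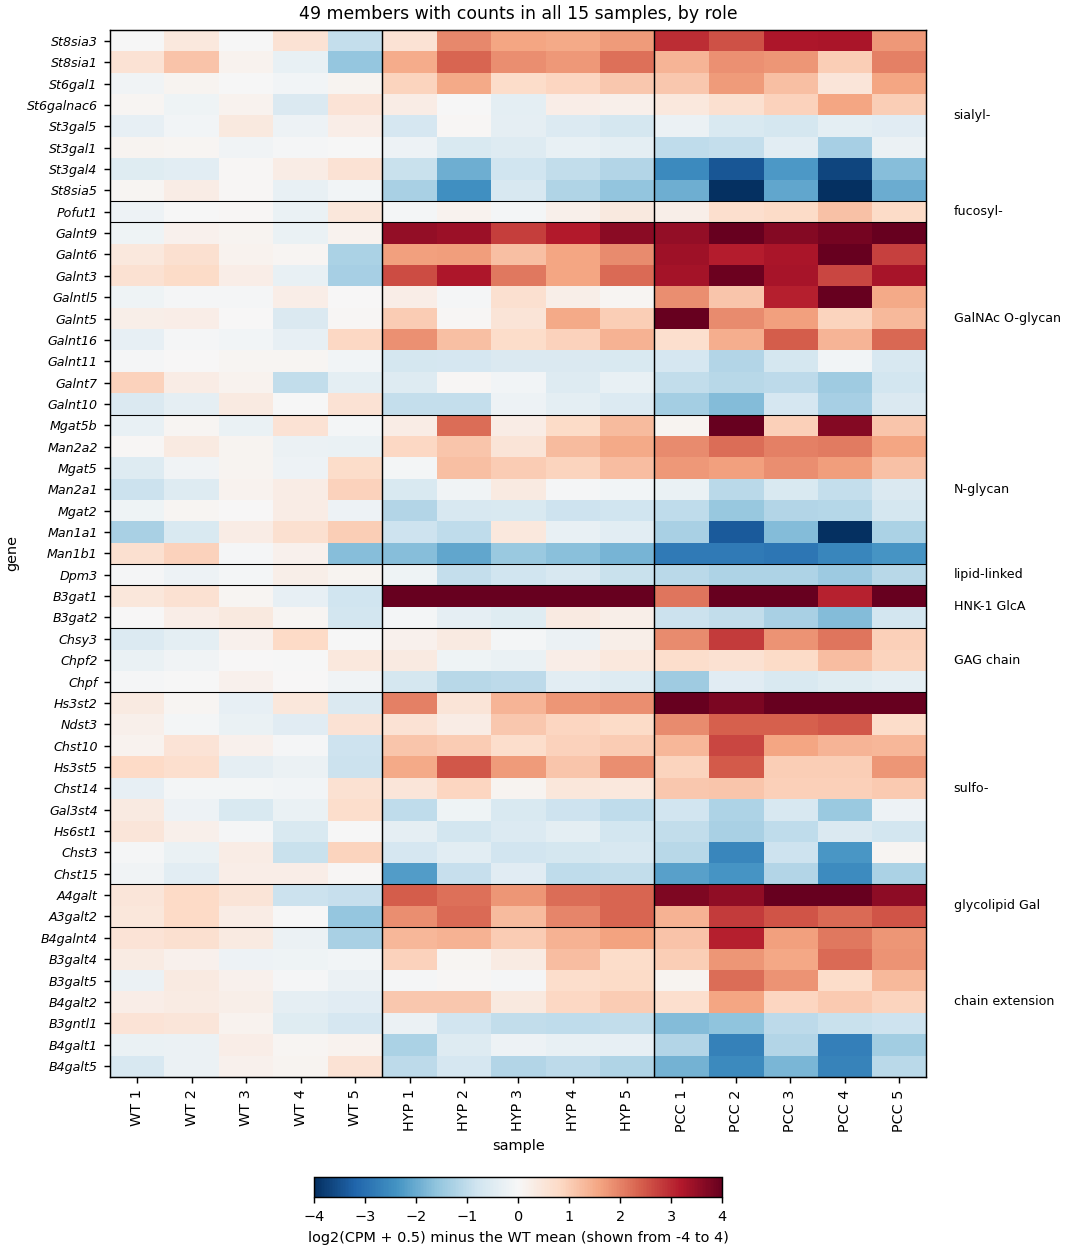
Levels of the 49 genes with counts in all 15 samples, as log2(CPM + 0.5) minus the mean of the 5 WT samples, on a color scale that ends at 4 in both directions, with genes in rows by role and samples in columns. B3gat1, Galnt9 and Hs3st2 are among the strongest red rows in PCC, and Man1b1, St3gal4 and St8sia5 among the strongest blue ones.

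The HNK-1 epitope is made by B3gat1 or B3gat2, glucuronyltransferases that act on terminal N-acetyllactosamine, and by Chst10, which sulfates the glucuronic acid. These 3 genes moved in different directions. B3gat1 (Rn06, chromosome 8, 27777179 to 27804515) had 1.54, 1.76, 1.05, 0.689 and 0.356 CPM in the 5 WT samples, 61.7, 212, 73.2, 29.9 and 55.1 CPM in HYP and 6.01, 189.7, 50.5, 12.01 and 82.2 CPM in PCC, each in the order of the replicates. All 10 mutant samples were above all WT samples, and both mutant groups spread over more than 5-fold. B3gat1 was higher in HYP than in WT (log2 fold change 6.21 ± 0.60 SE, adjusted p = 1.68e-04) and in PCC than in WT (log2 fold change 5.92 ± 0.96 SE, adjusted p = 9.96e-04). Without HYP replicate 2 the HYP difference was 5.57, and without PCC replicate 2 the PCC difference was 5.04. The gene is not listed for PCC vs. HYP.

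B3gat2 (Rn06, chromosome 9, 29984077 to 30068649) went the other way. It had 1.64, 2.07, 2.27, 1.75 and 0.782 CPM in WT, 1.52, 1.15, 1.03, 2.21 and 1.996 CPM in HYP and 0.683, 0.582, 0.374, 0.142 and 0.773 CPM in PCC. Every PCC sample lay below every WT and HYP sample, although the highest PCC sample came close to the lowest WT sample. B3gat2 fell in PCC relative to WT (log2 fold change -1.76 ± 0.45 SE, adjusted p = 0.0115) and relative to HYP (log2 fold change -1.73 ± 0.44 SE, adjusted p = 0.0349). The second call was lost without PCC replicates 2 or 3 or any of the 5 HYP replicates (adjusted p up to 0.0952), and without both PCC samples low in cortex markers (adjusted p = 0.0798).

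Chst10 (Rn06, chromosome 9, 45528928 to 45559140) rose with B3gat1. Its levels were 2.98, 4.08, 3.06, 2.504 and 1.28 CPM in WT, 6.21, 5.87, 4.58, 5.46 and 5.84 CPM in HYP and 7.34, 19.5, 8.94, 7.57 and 7.35 CPM in PCC, so that PCC replicate 2, which also had the highest B3gat1 level in PCC, stood above the other PCC samples. All HYP samples were above all WT samples and all PCC samples above all HYP samples. Chst10 was higher in PCC than in WT (log2 fold change 1.83 ± 0.40 SE, adjusted p = 0.00492) and in HYP than in WT (log2 fold change 0.94 ± 0.27 SE, adjusted p = 0.0328). The HYP call was lost without any 1 of WT replicates 1, 3 and 4 or HYP replicates 1, 2 and 5 (adjusted p up to 0.0741). For PCC vs. HYP the log2 fold change was 0.72 ± 0.30 SE (adjusted p = 0.211).

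The promoters of these 3 genes are shown because the enzymes of 1 epitope moved in opposite directions. The study concerns tumors with a pseudohypoxic expression profile, so the letters ACGTG and GCGTG, the core of the hypoxia response element bound by HIF proteins, were searched on both strands and are in capitals. Sequences are the 250 bases before the transcription start in the RefSeq annotation of the rat genome GRCr8, a different build from that of the deposited tables, written 5′ to 3′ on the strand of the gene.
B3gat1, chr8:33363055-33363304 (+ strand): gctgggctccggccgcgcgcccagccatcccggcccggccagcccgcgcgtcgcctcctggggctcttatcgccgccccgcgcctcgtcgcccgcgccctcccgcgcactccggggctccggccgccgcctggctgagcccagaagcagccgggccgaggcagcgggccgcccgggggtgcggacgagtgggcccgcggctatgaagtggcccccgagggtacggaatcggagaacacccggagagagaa
B3gat2, chr9:33663232-33663481 (+ strand): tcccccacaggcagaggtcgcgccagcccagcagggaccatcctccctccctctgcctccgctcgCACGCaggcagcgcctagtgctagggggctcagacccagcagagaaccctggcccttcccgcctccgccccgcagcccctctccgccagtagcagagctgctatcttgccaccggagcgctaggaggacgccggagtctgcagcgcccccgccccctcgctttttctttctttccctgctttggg
Chst10, chr9:48618443-48618692 (- strand): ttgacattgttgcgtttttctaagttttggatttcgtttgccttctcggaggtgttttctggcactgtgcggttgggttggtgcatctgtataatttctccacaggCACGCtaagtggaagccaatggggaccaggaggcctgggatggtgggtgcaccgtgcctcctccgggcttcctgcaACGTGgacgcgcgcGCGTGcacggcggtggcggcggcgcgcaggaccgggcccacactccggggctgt
The B3gat1 window holds 0 matches, that of B3gat2 1 and that of Chst10 3. In windows of the same 250 bases before the start, 36.7% of all 33469 promoters and 44.8% of those of 67 members held at least 1 match, 30 of the 67 in number. Promoters of 67 of the 76 members were in the RefSeq table. The median number of CG pairs was 17 in the members' windows and 5 in all promoters, and ACGTG and GCGTG each contain such a pair. A match of letters is a description of the sequence, and no binding was measured here.

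**Figure D3:**
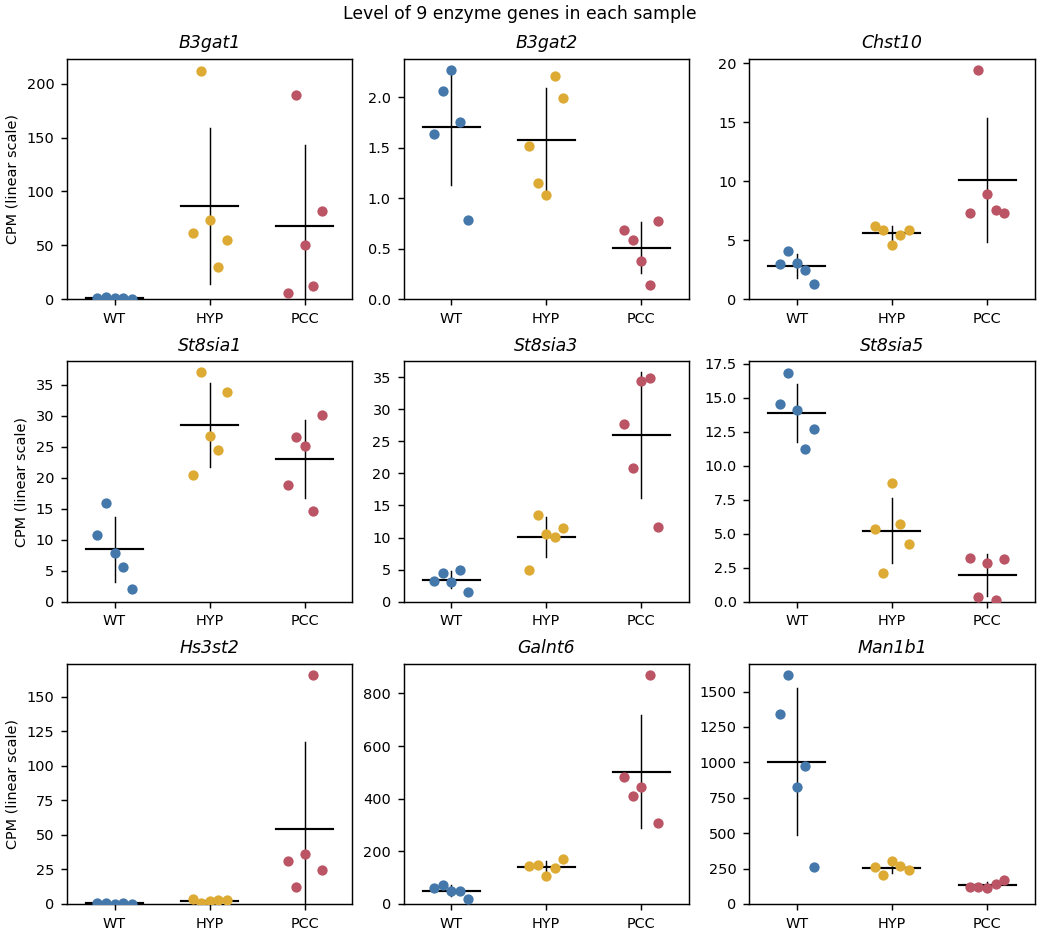
Levels in CPM of 9 of the enzymes in each of the 15 samples, with points for samples, a line at the mean and a bar of ± 1 SD for each group (n = 5). B3gat1, Hs3st2 and Galnt6 are above all WT samples in every PCC sample, whereas St8sia5, B3gat2 and Man1b1 are below all WT samples in every PCC sample.

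Sialyltransferases cap glycans with sialic acid. Of the 10 tested in PCC vs. WT, 5 were higher and 5 lower, beside 47.2% of all genes higher and 37.8% lower. The 5 higher were St8sia1, St8sia3, St6gal1, St6galnac4 and St6galnac6, and the 5 lower were St8sia5, St3gal1, St3gal4, St3gal5 and St3gal6. All 4 tested genes of the alpha2,3-type (St3gal) were thus lower and all 3 of the alpha2,6-type (St6gal and St6galnac) higher, as seen after the values were known. St3gal3, also of the alpha2,3-type, is listed only for PCC vs. HYP and is not in this split. The split also depended on the scaling. St3gal5 lost its call when scaled to the listed counts (log2 fold change -0.03) and to the recovered library totals (-0.24, adjusted p = 0.475). In HYP vs. WT 3 of 7 were higher, 3 lower and 1 not called, beside 39.0% of all genes higher and 32.6% lower.

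The alpha2,8-sialyltransferases, which add sialic acid to sialic acid, split in direction. St8sia1, the GD3 synthase of the ganglioside b-series, had 10.8, 15.97, 7.86, 5.63 and 2.06 CPM in WT, 20.5, 37.1, 26.7, 24.5 and 33.9 CPM in HYP and 18.8, 26.6, 25.1, 14.6 and 30.1 CPM in PCC. HYP and WT did not overlap (log2 fold change 1.69 ± 0.41 SE, adjusted p = 0.0152), but 1 PCC sample, replicate 4, lay below the highest WT sample, WT replicate 2. St8sia1 was also called higher in PCC than in WT (log2 fold change 1.39 ± 0.45 SE, adjusted p = 0.0358). That call was lost without PCC replicate 2, 3 or 5 or WT replicate 3 or 4 (adjusted p up to 0.0860).

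St8sia3 (Rn06, chromosome 18, 59748444 to 59755226), which extends sialic acid on glycoproteins and glycolipids, rose stepwise. Its level was 3.17, 4.38, 3.11, 4.95 and 1.42 CPM in WT, 4.94, 13.4, 10.6, 10.05 and 11.4 CPM in HYP and 27.8, 20.9, 34.5, 34.9 and 11.7 CPM in PCC. The PCC samples were all above the WT samples, while HYP replicate 1 lay just under the highest WT sample and PCC replicate 5 lay among the HYP samples. St8sia3 was higher in PCC than in WT (log2 fold change 2.88 ± 0.39 SE, adjusted p = 4.37e-04), in HYP than in WT (log2 fold change 1.51 ± 0.34 SE, adjusted p = 0.0106) and in PCC than in HYP (log2 fold change 1.22 ± 0.32 SE, adjusted p = 0.0414). The last call was lost without any 1 of the 10 samples except PCC replicate 5 (adjusted p up to 0.0971).

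St8sia5 (Rn06, chromosome 18, 73564247 to 73625137), which makes higher gangliosides such as GT3, went the other way. It had 14.5, 16.8, 14.1, 11.2 and 12.7 CPM in WT, 5.32, 2.09, 8.704, 5.69 and 4.24 CPM in HYP and 3.19, 0.3398, 2.85, 0.142 and 3.09 CPM in PCC. Every HYP and PCC sample was below every WT sample, and PCC replicates 2 and 4, the samples with the lowest cortex marker sums, were the lowest. St8sia5 fell in HYP (log2 fold change -1.47 ± 0.31 SE, adjusted p = 0.00837) and in PCC (log2 fold change -2.88 ± 0.65 SE, adjusted p = 0.00610) relative to WT. Without both of those PCC samples the PCC difference was -2.19 (adjusted p = 4.00e-04).

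The promoters of St8sia3 and St8sia5 are set side by side because both genes lie on rat chromosome 18, act on sialic acid ends and moved in opposite directions.
St8sia3, chr18:60024305-60024554 (+ strand): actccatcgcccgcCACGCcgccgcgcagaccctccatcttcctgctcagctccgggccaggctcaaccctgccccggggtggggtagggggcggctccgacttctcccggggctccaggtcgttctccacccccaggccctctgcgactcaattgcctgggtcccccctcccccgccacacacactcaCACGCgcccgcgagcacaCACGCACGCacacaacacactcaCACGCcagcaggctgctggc
St8sia5, chr18:73011337-73011586 (+ strand): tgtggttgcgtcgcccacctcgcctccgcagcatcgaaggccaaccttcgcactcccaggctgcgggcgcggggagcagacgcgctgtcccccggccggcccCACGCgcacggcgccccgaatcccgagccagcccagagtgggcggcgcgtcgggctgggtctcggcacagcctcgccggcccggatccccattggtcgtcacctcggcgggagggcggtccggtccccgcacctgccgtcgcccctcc
The St8sia3 window holds 5 matches of GCGTG or its reverse complement and the St8sia5 window 1, shown in capitals as above.

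St3gal4, which adds alpha2,3-linked sialic acid to galactose ends of glycoproteins, had levels of 216, 223, 309, 367 and 448 CPM in WT, 161, 77.2, 171, 153 and 133 CPM in HYP and 51.1, 27.5, 60.7, 23.1 and 91.9 CPM in PCC. The WT samples lay above all HYP samples, and HYP replicate 2 was the only HYP sample within the range of PCC. St3gal4 fell in PCC vs. WT (log2 fold change -2.63 ± 0.37 SE, adjusted p = 5.11e-04) and in HYP vs. WT (log2 fold change -1.22 ± 0.26 SE, adjusted p = 0.00814). It also fell in PCC vs. HYP (log2 fold change -1.57 ± 0.38 SE, adjusted p = 0.0296), a call lost without PCC replicate 2 or 3 or HYP replicate 1, 3, 4 or 5 (adjusted p up to 0.0803). The 2 WT samples with the lowest cortex sums, replicates 1 and 2, had the lowest St3gal4 of the WT group, and PCC replicates 2 and 4 had the lowest of the PCC group.

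St3gal5, the GM3 synthase that starts most gangliosides, ranged from 55.9 to 91.7 CPM in WT, from 43.02 to 72.6 CPM in HYP and from 42.9 to 59.5 CPM in PCC. These ranges overlap, and the small drop in PCC (log2 fold change -0.51 ± 0.16 SE, adjusted p = 0.0291) was lost without PCC replicate 2 or 3 or WT replicate 3 or 5 (adjusted p up to 0.0842). B3galt4, the GM1 synthase, had 1.54, 1.31, 0.897, 0.939 and 0.996 CPM in WT, 2.599, 1.21, 1.55, 3.31 and 2.196 CPM in HYP and 2.73, 4.999, 4.21, 7.28 and 5.11 CPM in PCC. Each PCC sample was above each WT sample (log2 fold change 2.06 ± 0.33 SE, adjusted p = 9.15e-04), and PCC and HYP overlapped (1.02 ± 0.33 SE, adjusted p = 0.0847). Named after its values were seen, St6gal1, which adds alpha2,6-linked sialic acid to N-glycans, had 7.598 to 9.12 CPM in WT, 14.3 to 24.8 CPM in HYP and 11.9 to 28.01 CPM in PCC. St6gal1 was higher in both mutant groups, with log2 fold changes of 1.02 ± 0.18 SE in HYP (adjusted p = 0.00382) and 1.30 ± 0.24 SE in PCC (adjusted p = 0.00187). B4galnt1 and Ugcg, which act beside these enzymes in ganglioside synthesis, and the polysialic acid synthases St8sia2 and St8sia4 are listed in none of the 3 tables, so no value is given for them.

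**Figure D4:**
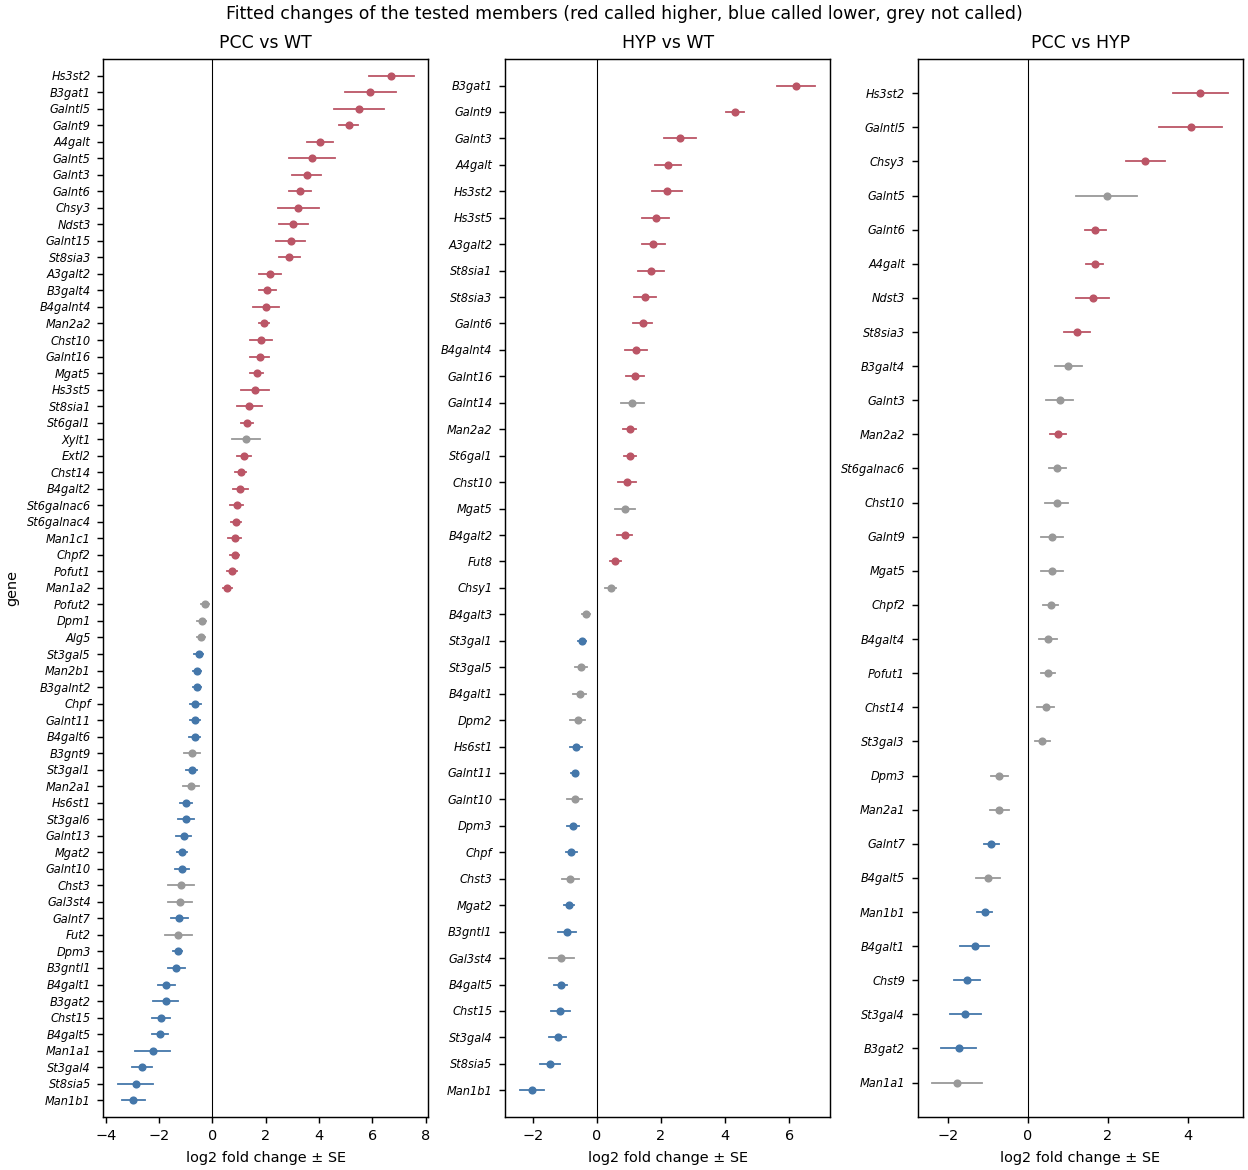
Log2 fold change ± SE of the enzymes tested in each of the 3 comparisons, with genes called higher in red, called lower in blue and not called in grey. Hs3st2 and B3gat1 have the largest increases in PCC vs. WT and Man1b1 and St8sia5 the largest decreases.

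Of the enzymes that add a sugar to glycolipids, A4galt and A3galt2 were higher in both mutant groups, whereas B4galt5, which makes their precursor lactosylceramide, was lower in both. A4galt, which makes Gb3 from lactosylceramide, had 2.36, 3.07, 2.43, 0.626 and 0.569 CPM in WT, 10.5, 8.95, 6.45, 9.06 and 9.73 CPM in HYP and 26.5, 23.6, 37.99, 45.2 and 24.1 CPM in PCC. The 3 groups did not overlap, and each step was called: HYP vs. WT at 2.22 ± 0.41 SE (adjusted p = 0.00460), PCC vs. HYP at 1.67 ± 0.22 SE (adjusted p = 0.00296) and PCC vs. WT at 4.05 ± 0.49 SE (adjusted p = 2.37e-04). WT replicates 4 and 5 had the lowest level of A4galt and also the lowest chromaffin marker sums. A3galt2, the iGb3 synthase, named after its values were seen, had 5.41 to 29.5 CPM in WT, 40.4 to 85.9 CPM in HYP and 44.2 to 119 CPM in PCC. It rose in HYP (log2 fold change 1.76 ± 0.36 SE, adjusted p = 0.00668) and in PCC (log2 fold change 2.17 ± 0.42 SE, adjusted p = 0.00246), with WT replicate 5 again the lowest. Ugt8, which makes galactosylceramide, had too few reads for the test and reached at most 3.88 CPM, in PCC replicate 4.

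GalNAc transferases start mucin-type O-glycans by adding GalNAc to serine or threonine, and related members have tissue-restricted patterns. Of the 11 tested in PCC vs. WT, 7 were higher and 4 lower, beside 47.2% of all genes higher and 37.8% lower. The 7 higher were Galnt3, Galnt5, Galnt6, Galnt9, Galnt15, Galnt16 and Galntl5, and the 4 lower were Galnt7, Galnt10, Galnt11 and Galnt13. In WT samples, Galnt5 had at most 8 reads, Galnt9 at most 10, and Galnt15 and Galntl5 at most 3. These genes had enough reads to be tested only through their PCC samples, so the split is not read as a trait of the class. For HYP vs. WT, 4 of 7 tested were higher and 1 lower, beside 39.0% and 32.6% of all genes. In PCC vs. HYP 2 of 6 were higher and 1 lower, beside 20.3% and 24.5%. By mean FPKM in WT, Galnt10 at 40.8 ± 10.4 and Galnt11 at 31.7 ± 4.56 were the most abundant of the class with counts in all samples, followed by Galnt6 at 16.6 ± 7.58 and Galnt7 at 14.1 ± 7.85.

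Galnt6 had 62.1, 72.4, 50.6, 48.1 and 18.6 CPM in WT, 144, 147, 106, 137 and 172 CPM in HYP and 484, 408, 445, 869.7 and 308 CPM in PCC. No 2 groups overlapped, and PCC replicate 4 was the highest. The steps were 1.43 ± 0.29 SE from WT to HYP (adjusted p = 0.00653) and 1.69 ± 0.26 SE from HYP to PCC (adjusted p = 0.00572), and PCC was higher than WT by 3.28 ± 0.41 SE (adjusted p = 2.86e-04).

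Galnt9, an isoform known mainly from brain, went from 0.289, 0.504, 0.475, 0.2504 and 0.498 CPM in WT to 9.83, 9.002, 5.61, 7.49 and 10.4 CPM in HYP and 9.704, 23.5, 10.99, 12.2 and 14.7 CPM in PCC. Both mutant groups were far above WT, and they overlapped with each other. Its increase was 4.31 ± 0.29 SE in HYP (adjusted p = 1.52e-05) and 5.11 ± 0.36 SE in PCC (adjusted p = 5.75e-05), and PCC vs. HYP was not called (0.61 ± 0.28 SE, adjusted p = 0.2799).

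Galnt3, a GalNAc transferase of epithelia and of FGF23 processing, had 1.97, 2.22, 1.42, 0.814 and 0.142 CPM in WT, 9.44, 14.6, 6.51, 4.36 and 7.24 CPM in HYP and 15.7, 23.98, 15.3, 9.88 and 15.3 CPM in PCC. WT replicate 5 was the lowest of all. Galnt3 rose in HYP (log2 fold change 2.58 ± 0.51 SE, adjusted p = 0.00562) and in PCC (log2 fold change 3.54 ± 0.54 SE, adjusted p = 7.27e-04) relative to WT.

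Galnt5 and Galntl5 were low everywhere except in some tumors. Galnt5 had 0.385, 0.403, 0.264, 0 and 0.284 CPM in WT, 1.01, 0.274, 0.5803, 1.63 and 0.998 CPM in HYP and 12.5, 2.28, 1.82, 0.899 and 1.33 CPM in PCC, so that PCC replicate 1 was above all others. The increase in PCC vs. WT was 3.72 ± 0.87 SE (adjusted p = 0.00686) and 2.51 without that sample. Galntl5, a relative of the GalNAc transferases that is known from testis, had at most 3 reads in every WT sample. With 3 counts as the floor in each WT sample it was at least 20.3-fold higher in PCC, where it had 1.55, 0.728, 4.397, 9.55 and 1.12 CPM, and at least 11.4-fold higher without PCC replicate 4. The fitted change relative to HYP was 4.08 ± 0.79 SE (adjusted p = 0.0142) and 3.30 without PCC replicate 4.

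Galnt7, which adds GalNAc next to an existing one, fell in the tumors. It had 88.004, 56.6, 50.6, 23.2 and 35.1 CPM in WT, 31.8, 47.5, 42.7, 32.2 and 37.2 CPM in HYP and 22.96, 21.2, 22.2, 17.03 and 27.2 CPM in PCC. All PCC samples were below all HYP samples (log2 fold change -0.92 ± 0.19 SE, adjusted p = 0.0181), and WT replicate 4 lay within the PCC range (log2 fold change -1.24 ± 0.32 SE, adjusted p = 0.0126). The call against HYP was lost without HYP replicate 3 (adjusted p = 0.0514) and the call against WT without both PCC samples low in cortex markers (adjusted p = 0.0676). Both were lost when scaled to the listed counts or to the recovered library totals.

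N-glycans are trimmed by mannosidases and then branched by GlcNAc transferases of the Mgat family. Of the 9 enzymes of this class tested in PCC vs. WT, 4 were higher, 4 were lower and Man2a1 was not called. Of all genes tested, 47.2% were higher and 37.8% lower. Man1b1, the mannosidase that removes the first mannose in the endoplasmic reticulum and Golgi, had 1340.4, 1620.3, 828, 971 and 263 CPM in WT, 263, 204, 303, 271 and 238 CPM in HYP and 119, 119, 115, 140.5 and 167 CPM in PCC. The first 4 WT samples were far above all mutant samples, while WT replicate 5, the sample with the lowest chromaffin marker sum, lay at the level of HYP. Man1b1 fell in HYP (log2 fold change -2.03 ± 0.37 SE, adjusted p = 0.00429) and PCC (log2 fold change -2.98 ± 0.43 SE, adjusted p = 5.70e-04) relative to WT, and in PCC relative to HYP (log2 fold change -1.08 ± 0.18 SE, adjusted p = 0.00715). PCC and HYP did not overlap, but this call was lost in 1 fit over all 15 samples (-0.95, adjusted p = 0.0850).

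Man2a2, a Golgi mannosidase that acts after GlcNAc is added, moved against Man1b1. Its levels were 23.9, 30.02, 24.95, 19.7 and 19.5 CPM in WT, 41.4, 51.05, 33.8, 57.1 and 67.1 CPM in HYP and 87.1, 111, 95.2, 98.99 and 70.4 CPM in PCC. The groups did not overlap in any pair. It was higher in PCC than in WT by 1.94 ± 0.19 SE (adjusted p = 9.86e-05) and in HYP than in WT by 1.03 ± 0.20 SE (adjusted p = 0.00559). The smaller step from HYP to PCC (0.75 ± 0.20 SE, adjusted p = 0.0426) lost its call without any of PCC replicates 1 to 4 or HYP replicates 1 to 4 (adjusted p up to 0.102).

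Mgat2, which starts the second antenna of complex N-glycans, had 44.9, 53.996, 51.2, 62.9 and 43.7 CPM in WT, 22.1, 32.8, 33.4, 28.5 and 28.8 CPM in HYP and 24.97, 17.3, 22.3, 22.6 and 31.2 CPM in PCC. Each mutant sample was below each WT sample, with -0.87 ± 0.16 SE in HYP (adjusted p = 0.00375) and -1.14 ± 0.19 SE in PCC (adjusted p = 9.89e-04). Mgat5, which makes the beta1,6 branch and was named after its values were seen, went from 3.32 to 8.46 CPM in WT to 11.8 to 19.2 CPM in PCC (log2 fold change 1.67 ± 0.25 SE, adjusted p = 6.46e-04). In HYP the range was 4.63 to 12.3 CPM, and HYP vs. WT was not called (adjusted p = 0.0796). Man1a1, a Golgi mannosidase named on the same basis, had 147, 237, 449.9, 566 and 721 CPM in WT, 206, 179, 491, 297 and 271 CPM in HYP and 148, 35.1, 108, 9.36 and 151 CPM in PCC. It was lower in PCC than in WT (log2 fold change -2.23 ± 0.66 SE, adjusted p = 0.0229), with PCC replicates 2 and 4 lowest, although PCC replicates 1 and 5 lay within the range of WT.

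Galactosyl-, GlcNAc- and GalNAc transferases that extend the chains had 5 of 9 tested genes lower in PCC than in WT, 3 higher and 1 not called, beside 37.8% of all genes lower. B4galt1, the main galactosyltransferase of N-glycans, had 66.7, 68.8, 97.5, 86.1 and 88.97 CPM in WT, 33.4, 56.9, 70.2, 66.3 and 64.6 CPM in HYP and 35.3, 12.04, 35.2, 11.7 and 30.8 CPM in PCC. PCC lay below WT throughout (log2 fold change -1.73 ± 0.32 SE, adjusted p = 0.00207), and PCC replicates 2 and 4 were the lowest. Relative to HYP it fell by less (log2 fold change -1.33 ± 0.36 SE, adjusted p = 0.0459), a call lost without PCC replicate 2, 3 or 4 or HYP replicate 2, 3, 4 or 5 (adjusted p up to 0.114) and without both PCC samples low in cortex markers (adjusted p = 0.0577).

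B4galt5, which makes lactosylceramide, the precursor of gangliosides and globosides, had 151, 199, 266, 255 and 351 CPM in WT, 114, 148, 103, 113 and 101 CPM in HYP and 63.4, 39.99, 65.6, 36.5 and 110.2 CPM in PCC. All mutant samples were below all WT samples, with -1.14 ± 0.21 SE in HYP (adjusted p = 0.00470) and -1.96 ± 0.31 SE in PCC (adjusted p = 9.01e-04). PCC vs. HYP was not called (-0.99 ± 0.30 SE, adjusted p = 0.0603), but it was without PCC replicate 5 (log2 fold change -1.27, adjusted p = 0.00919), with DESeq2 (-1.11, adjusted p = 0.00837) and when adjusted over the listed genes alone (adjusted p = 0.0109). B3gntl1 ranged from 11.5 to 27.6 CPM in WT, 8.94 to 15.8 CPM in HYP and 5.24 to 10.4 CPM in PCC. It fell in PCC (log2 fold change -1.35 ± 0.32 SE, adjusted p = 0.00794) and in HYP (log2 fold change -0.94 ± 0.27 SE, adjusted p = 0.0355). The HYP call was lost without WT replicate 1, 2 or 3 or HYP replicate 2, 3, 4 or 5 (adjusted p up to 0.0900).

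Glycosaminoglycan chains start with xylose, and chondroitin sulfate chains are extended by Chsy and Chpf proteins. Of the 5 chain enzymes tested in PCC vs. WT, 3 were higher (Chsy3, Chpf2 and Extl2), Chpf was lower and Xylt1 was not called. Of all genes tested, 47.2% were higher and 37.8% lower. Chsy3, a chondroitin synthase, had 0, 0.0504, 0.317, 0.751 and 0.213 CPM in WT, 0.317, 0.439, 0.193, 0.116 and 0.349 CPM in HYP and 2.19, 4.56, 2.01, 2.696 and 0.902 CPM in PCC. PCC was above both other groups in every sample, at 3.23 ± 0.75 SE vs. WT (adjusted p = 0.00687) and 2.94 ± 0.49 SE vs. HYP (adjusted p = 0.00715). Without WT replicate 4 the difference from WT was 4.09. Chpf, the chondroitin polymerizing factor, had 181 to 226 CPM in WT, 91.6 to 148 CPM in HYP and 74.9 to 153 CPM in PCC, and fell in HYP (log2 fold change -0.80 ± 0.16 SE, adjusted p = 0.00678) and in PCC (log2 fold change -0.65 ± 0.20 SE, adjusted p = 0.0292). The PCC call was lost without PCC replicate 3 or WT replicate 1, 2, 3 or 4 (adjusted p up to 0.0706).

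Xylt1, a xylosyltransferase that starts the chains, had 1.202, 1.41, 3.38, 3.44 and 10.7 CPM in WT and 6.83, 7.33, 14.8, 11.1 and 7.13 CPM in PCC and is not listed with HYP samples. WT replicate 5 lay within the PCC range and the other WT samples below it. The difference was not called (log2 fold change 1.27 ± 0.52 SE, adjusted p = 0.0893), whereas without WT replicate 5 the log2 fold change was 1.96 (adjusted p = 0.00375). Xylt2, Ext1 and Ext2 are listed in no table.

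Sulfotransferases had 5 of 9 tested genes higher in PCC than in WT, 2 lower (Chst15 and Hs6st1) and 2 not called (Chst3 and Gal3st4). Of all genes tested, 47.2% were higher and 37.8% lower. The largest fitted change of the members in PCC vs. WT was in Hs3st2 (Rn06, chromosome 1, 191344979 to 191474142), which adds the 3-O-sulfate to heparan sulfate and is known mainly from neural tissue. It had 0.721, 0.504, 0.264, 0.814 and 0.142 CPM in WT, 3.36, 0.878, 1.93, 2.73 and 2.99 CPM in HYP and 30.9, 12.4, 36.4, 166 and 24.5 CPM in PCC. The groups did not overlap, and PCC replicate 4 was more than 4-fold above the next tumor. Hs3st2 rose in HYP (log2 fold change 2.19 ± 0.46 SE, adjusted p = 0.00766) and in PCC (log2 fold change 6.71 ± 0.83 SE, adjusted p = 2.80e-04) relative to WT, and in PCC relative to HYP (log2 fold change 4.32 ± 0.69 SE, adjusted p = 0.00607). Without PCC replicate 4 the values for PCC were 5.65 vs. WT and 3.35 vs. HYP (adjusted p = 0.00160).

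Other heparan sulfate enzymes were mixed. Ndst3, an N-deacetylase and N-sulfotransferase, had 0.481, 0.302, 0.211, 0.125 and 0.782 CPM in WT, 0.761, 0.549, 1.29, 1.05 and 0.948 CPM in HYP and 2.64, 3.98, 3.93, 4.26 and 0.902 CPM in PCC. PCC replicate 5 lay among the HYP samples and the other tumors above them. Ndst3 was higher in PCC than in WT (log2 fold change 3.04 ± 0.53 SE, adjusted p = 0.00153) and than in HYP (log2 fold change 1.62 ± 0.41 SE, adjusted p = 0.0354), and the second call was lost without PCC replicate 2, 3 or 4 or any of the 5 HYP replicates (adjusted p up to 0.0828). Hs3st5 and Hs6st1 were named after their values were seen. Hs3st5, a second 3-O-sulfotransferase, ranged from 0.6401 to 3.13 CPM in WT, 4.01 to 11.1 CPM in HYP and 3.33 to 10.9 CPM in PCC, and was higher in HYP (log2 fold change 1.84 ± 0.42 SE, adjusted p = 0.0121) and in PCC (log2 fold change 1.59 ± 0.52 SE, adjusted p = 0.0353) than in WT. Hs6st1, which adds 6-O-sulfate, fell from 85.1 to 179.9 CPM in WT to 76.8 to 100.2 CPM in HYP (log2 fold change -0.65 ± 0.19 SE, adjusted p = 0.0374) and 51.6 to 86.9 CPM in PCC (log2 fold change -0.98 ± 0.22 SE, adjusted p = 0.00570).

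Among the sulfotransferases of chondroitin and dermatan sulfate, Chst15, which makes the disulfated chondroitin sulfate E unit, had 16.3, 13.4, 21.7, 21.6 and 18.7 CPM in WT, 3.49, 9.28, 13.02, 8.595 and 8.83 CPM in HYP and 3.64, 3.11, 7.67, 2.74 and 7.26 CPM in PCC. No mutant sample reached the lowest WT sample, HYP replicate 3 coming nearest. Chst15 fell in HYP (log2 fold change -1.14 ± 0.29 SE, adjusted p = 0.0202) and in PCC (log2 fold change -1.93 ± 0.32 SE, adjusted p = 0.00115). The HYP call was lost without WT replicate 3, at an adjusted p of 0.0501. Chst14, the dermatan 4-O-sulfotransferase, named after its values were seen, was higher in PCC, with 3.75 to 7.75 CPM in WT and 9.87 to 11.02 CPM in PCC (log2 fold change 1.06 ± 0.21 SE, adjusted p = 0.00302). Chst9, a GalNAc 4-O-sulfotransferase, is listed only for PCC vs. HYP. It had 1.58, 3.35, 2.45, 2.61 and 2.55 CPM in HYP and 0.8201, 1.12, 0.936, 0.568 and 1.29 CPM in PCC, without overlap (log2 fold change -1.53 ± 0.32 SE, adjusted p = 0.0181). This call was lost without HYP replicate 2 or 4 (adjusted p up to 0.0540).

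Few enzymes of the lipid-linked precursor and few fucosyltransferases were listed. Of 3 lipid-linked genes tested in PCC vs. WT, only Dpm3 was called, and Alg5 and Dpm1 were not, beside 84.9% of all genes called. Dpm3, a subunit of the dolichol-phosphate mannose synthase, had 19.04, 17.1, 18.7, 23.4 and 21.3 CPM in WT, 17.6, 10.04, 11.3, 12.5 and 10.4 CPM in HYP and 9.02, 8.203, 8.19, 6.86 and 8.81 CPM in PCC. All PCC samples were below all others. Dpm3 was lower in PCC than in WT (log2 fold change -1.29 ± 0.17 SE, adjusted p = 3.30e-04), and PCC vs. HYP was not called (-0.72 ± 0.22 SE, adjusted p = 0.0644). HYP was lower than WT (log2 fold change -0.75 ± 0.19 SE, adjusted p = 0.0181). The HYP call was lost without HYP replicate 5 (adjusted p = 0.0573), when scaled to the listed counts (adjusted p = 0.957) and when scaled to the recovered library totals (adjusted p = 0.0569). Pofut1, which adds fucose to EGF repeats of Notch receptors, rose in PCC from 19.03 to 31.4 to 27.2 to 52.2 CPM (log2 fold change 0.73 ± 0.19 SE, adjusted p = 0.0124), with overlap between the groups, and was not called without both PCC samples low in cortex markers (adjusted p = 0.0722). Fut2 and Pofut2 were not called.

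The enzymes need activated sugars, transporters and protein carriers, and lists of these were read from the same fits. Of 13 tested genes of nucleotide sugar and sulfate donor synthesis in PCC vs. WT, out of 30 in the list, 5 were higher, 5 lower and 3 not called. Of all genes tested, 47.2% were higher and 37.8% lower. Gne, the first enzyme of sialic acid synthesis, rose from a mean of 15.4 to 33.1 CPM (log2 fold change 1.09 ± 0.17 SE, adjusted p = 8.86e-04), and Ugdh, which makes the UDP-glucuronic acid that B3gat1, B3gat2 and the glycosaminoglycan enzymes use, fell from 189.9 to 40.4 CPM (log2 fold change -2.27 ± 0.24 SE, adjusted p = 1.24e-04). The 2 synthases of the sulfate donor PAPS went apart, with log2 fold changes of 0.86 ± 0.14 SE for Papss1 (adjusted p = 0.00109) and -1.39 ± 0.29 SE for Papss2 (adjusted p = 0.00409). Of a list of 17 genes drawn up for nucleotide sugar transport, the 6 tested all belong to the Slc35 family. All 6 were higher in PCC, beside 47.2% of all genes tested, and only genes that the authors had called are listed. What each of these proteins carries was not tested, so the count is not read as a rise of sugar donor transport. Slc35d3 had the largest increase, from 85.6 to 688 CPM (log2 fold change 2.96 ± 0.52 SE, adjusted p = 0.00147). In HYP vs. WT 1 of 8 donor genes was higher and 5 lower, and 1 of 3 Slc35 genes was higher and 1 lower. Of all genes in that comparison, 39.0% were higher and 32.6% lower.

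HNK-1 and polysialic acid are carried by neural adhesion proteins. Of 7 of these tested in PCC vs. WT, of 11 in the list, 5 were higher, 1 was lower and 1 was not called, beside 47.2% of all genes higher. L1cam went from 13.9 to 247 CPM (log2 fold change 4.11 ± 0.40 SE, adjusted p = 9.66e-05), Nfasc from 6.45 to 307 CPM (log2 fold change 5.53 ± 0.51 SE, adjusted p = 9.46e-05) and Ncam1 from 49.2 to 158 CPM (log2 fold change 1.64 ± 0.36 SE, adjusted p = 0.00513). L1cam was also higher in HYP than in WT, from 13.9 to 181 CPM (log2 fold change 3.64 ± 0.34 SE, adjusted p = 1.68e-04), and in that comparison 5 of 7 of the list were higher and 1 lower, beside 39.0% of all genes higher.

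Of 15 proteoglycan core proteins tested in PCC vs. WT, of 32, 8 were higher, 6 lower and 1 not called. Of all genes tested, 47.2% were higher and 37.8% lower. Spock1, a testican with heparan and chondroitin sulfate, rose from 5.37 to 224 CPM (log2 fold change 5.33 ± 0.60 SE, adjusted p = 1.69e-04) and the syndecan Sdc1 from 2.17 to 30.3 CPM (log2 fold change 3.76 ± 0.47 SE, adjusted p = 2.81e-04). The glypican Gpc4 fell from 240.5 to 68.002 CPM (log2 fold change -1.85 ± 0.41 SE, adjusted p = 0.00548). Among 12 degrading and editing enzymes tested, of 32, 5 were higher and 7 lower, beside the same shares of all genes. Sulf1, which removes 6-O-sulfate from heparan sulfate outside the cell, rose from 0.675 to 20.02 CPM (log2 fold change 4.95 ± 0.93 SE, adjusted p = 0.00215), and Galc, the lysosomal galactosylceramidase, fell from 82.1 to 21.5 CPM (log2 fold change -1.93 ± 0.38 SE, adjusted p = 0.00276). Of 4 oligosaccharyltransferase subunits tested, of 12, 2 were higher, 1 lower and 1 not called, beside 47.2% of all genes higher and 37.8% lower.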

How the data were processed

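RNA-seq was measured in macrodissected adrenal medulla of 15 rats, grouped by condition and replicate as the labels give them, each sample being a separate rat. The authors prepared poly-A libraries with an unstranded kit, so overlapping antisense transcripts cannot be told apart, mapped reads to the rat genome Rn06 with HISAT2 2.0.5, counted them with featureCounts 1.5.0-p3 (submitters' processing notes) and compared the groups with DESeq2. They deposited 3 tables, 1 for each pair of groups, which list only the genes they had called (adjusted p under 0.05). These hold the deposited raw read counts, the signal values that the authors made by dividing counts by size factors, and FPKM. The authors' log2 fold changes and p-values stand beside them. Their log2 fold changes were not used, and the deposited p-values served only to recover how many genes had been tested, which was 18790 when PCC and WT were compared, 18057 for HYP and WT and 17454 for PCC and HYP.

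Counts were tested with edgeR 4.0.16 (R 4.3.3, limma 3.58.1), with TMM over the listed genes, filterByExpr, glmQLFit and glmQLFTest, over all genes of each table. P-values were adjusted by the Benjamini-Hochberg method over the recovered number of genes, and are upper bounds for the listed genes. The SE is the log2 fold change divided by the square root of F. CPM were put on 1 scale by TMM over the 5492 genes with counts in all 15 samples and rescaled to library totals recovered from counts, FPKM and gene lengths, 16315018 to 23831269 reads, where 1 CPM stands for 16 to 24 reads. For a group with at most 3 counts in every sample, the fold is a lower bound. Scripts were checked on simulated data. Other steps used Python 3.11.15, numpy 2.4.6, pandas 2.3.3 and matplotlib 3.10.9.

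The members and the lists of other genes were chosen with earlier results of these data known. The genes named are the enzymes of HNK-1, gangliosides, polysialic acid and glycosaminoglycan initiation, the 10 largest changes in each direction in PCC vs. WT and the 5 largest in the other comparisons among called genes whose mean reached 1 CPM and whose groups did not overlap, and the largest called change in each direction per role in PCC vs. WT. Others were named after their values were seen, as stated there. The single-gene result of 1 listed gene is not reported here. Alternatives were DESeq2 1.42.0, other scalings and filters, adjustment over the listed genes alone, 1 fit over all samples, a replicate block and leaving out samples. TMM after the filter and leaving out both PCC samples low in cortex markers were chosen after seeing the data. Promoters were read from RefSeq annotation of GRCr8.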

Additional observations from a re-analysis of the deposited data

Results flagged for a closer look

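In a group of 5 samples, a sample was singled out when its gap to the nearest sample exceeded 0.71 of the group's range (Dixon's 95% critical value). Of 91 groups of the named genes 7 met this, and chance gives about 1 in 20. B3gat1 was at 212 CPM in HYP replicate 2, with 73.2 CPM as the next value. B3gntl1 was at 15.8 CPM in HYP replicate 1, the next being 10.8 CPM. B4galt5 reached 148 CPM in HYP replicate 2, against 114 CPM in the next sample. Chst10 was at 19.5 CPM in PCC replicate 2 and at 8.94 CPM in the next. Galnt5 was at 12.5 CPM in PCC replicate 1 and at 2.28 CPM in the next. Hs3st2 was at 166 CPM in PCC replicate 4 and at 36.4 CPM in the next. Xylt1 was at 10.7 CPM in WT replicate 5 and at 3.44 CPM in the next WT sample.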

How the results depend on the processing

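Among values of named genes under alternatives other than leaving out 1 sample, 690 kept direction and side of the threshold, 53 lost and 17 gained the call, and 0 changed direction. Without 1 sample, 650 kept both, 77 lost and 3 gained the call. The counts of members called depended more on the settings. In PCC vs. WT (31 higher, 23 lower) lower calls were 8 when scaled to the listed counts, 12 with the recovered library totals and 14 without both PCC samples low in cortex markers, and higher calls were 20 with at least 10 counts required in every sample. In HYP vs. WT (17 and 12) lower calls were 2, 6 and, adjusted over the listed genes alone, 19, and higher calls were 11 with at least 10 counts in every sample. In PCC vs. HYP (8 and 6) lower calls were 10 with DESeq2, 3 when scaled to the listed counts, 10 when adjusted over the listed genes alone and 3 in 1 fit over 15 samples, and higher calls were 17 when adjusted over the listed genes alone and 5 without both PCC samples low in cortex markers. The requirement of 10 counts in every sample removes genes that are low in WT, and it turned the members' median log2 fold change to -0.47 in PCC vs. WT and -0.51 in HYP vs. WT. The cause of the other shifts was not tested, and without the shares of all genes they are not read as particular to the members. A single fit over 15 samples ended the calls of St3gal5 (PCC vs. WT), B3gntl1, Chst10 and St8sia5 (HYP vs. WT) and Galnt7 and Man1b1 (PCC vs. HYP). The recovered library totals ended those of Chpf, Galnt7 and St3gal5 (PCC vs. WT), B3gntl1, Chpf, Chst15 and Dpm3 (HYP vs. WT) and B4galt1 and Galnt7 (PCC vs. HYP). DESeq2 moved the median of all genes by -0.11 in PCC vs. WT, by 0.04 in HYP vs. WT and by -0.14 in PCC vs. HYP.

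Without 1 sample, higher and lower calls ranged from 29 to 33 and from 18 to 25 in PCC vs. WT, from 13 to 21 and from 8 to 14 in HYP vs. WT and from 5 to 8 and from 2 to 7 in PCC vs. HYP. The members' median ranged from 0.55 to 0.84, from 0.41 to 0.67 and from 0.49 to 0.67. Lower calls in PCC vs. HYP were 2 without HYP replicate 3 or 4 and 3 without PCC replicate 2 or 3 or HYP replicate 2 or 5. Higher calls there were 5 without PCC replicate 2, 3 or 4 or HYP replicate 1, 2, 3 or 4.

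Samples with the same replicate number in 2 groups did not deviate together (correlations of -0.24 to 0.27), so the numbers were not taken as pairs. With a replicate block, 5 members were higher and 2 lower in PCC vs. HYP. The block ended the calls of B3gntl1, Chpf and St3gal5 in PCC vs. WT, of Chst10 in HYP vs. WT and of 7 genes in PCC vs. HYP, and Xylt1 was called in PCC vs. WT (1.63, adjusted p = 0.0394). Genes under about 1 CPM rest on few reads per sample, which limits Chsy3, Galnt5, Galntl5 and B3gat2. The same limit holds in WT for Hs3st2, Galnt9 and Ndst3, with means of 0.49, 0.40 and 0.38 CPM. Their highest WT counts were 15, 10 and 11 reads, so the sizes of their fold changes against WT are uncertain.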
